A study of Drosophila melanogaster with 6 samples.

Results

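The cytosolic ribosomal protein genes of Drosophila melanogaster were followed here in wing imaginal discs of the third instar, the larval epithelium that forms the adult wing and notum. Members were the probe sets that the platform's probe table assigns to exactly 1 gene symbol, where that symbol starts with RpL or RpS followed by a digit or a P. The rule found 37 genes with 1 probe set each, of 10844 genes measured. Mitochondrial ribosomal protein genes and kinases of RpS6 fall outside the rule. A RefSeq gene table held 92 symbols that fit it, and the other 55 were not analysed here. All 37 members had the same symbol in that table under their Entrez identifier. Another 2 probe sets named a member together with a second gene and were left out.

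The study set 3 arrays of discs with activated Egfr, the fly's epidermal growth factor receptor, labelled EGFR ACT (TOP), against 3 arrays with a dominant negative receptor, labelled EGFR DN. Both transgenes were driven by 71B-Gal4, a fly line that makes the yeast activator Gal4 in a tissue pattern. The discs therefore also hold cells that do not express the transgene. Flies of both groups were raised at 25 °C, and 6 µg of total RNA went into each biotin labelling. Discs without either transgene were not analysed here, neither group is a baseline, and the labels do not say whether replicates came from separate animals. The arrays are called ACT1 to ACT3 and DN1 to DN3.

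A ribosome has a small subunit, which reads the messenger RNA, and a large subunit, which joins the amino acids. Most of their proteins come from 1 gene each in the fly, and many of these genes show the Minute phenotype, slow growth and thin bristles, when 1 copy is lost. Ribosomal protein genes are among the most strongly expressed genes of growing tissue, and the wing disc grows throughout larval life. Egfr signals through Ras and the kinase ERK, a pathway that promotes growth and cell survival in the disc as well as the patterning of veins.

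Values are log2 signals of probe sets. The brightness of a probe set depends on its probe sequences as well as on the RNA, so signals of different genes are described here and not ranked as RNA amounts. The signals of the members fell into 2 ranges. In 26 members the mean over the 6 arrays lay between 13.74 (RpL39) and 14.98 (RpL17), and these are called bright members below, with a limit of 13 set after the values were seen. In the other 11 members it lay between 5.54 (RpL10Aa) and 10.41 (RpL24-like), with none in between. The highest value of the whole table was 15.08, which was the value of RpL17 in DN1, so the bright members lie at the upper end of what these arrays returned. Whether their spots were saturated could not be examined without scanner files.

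**Figure D1:**
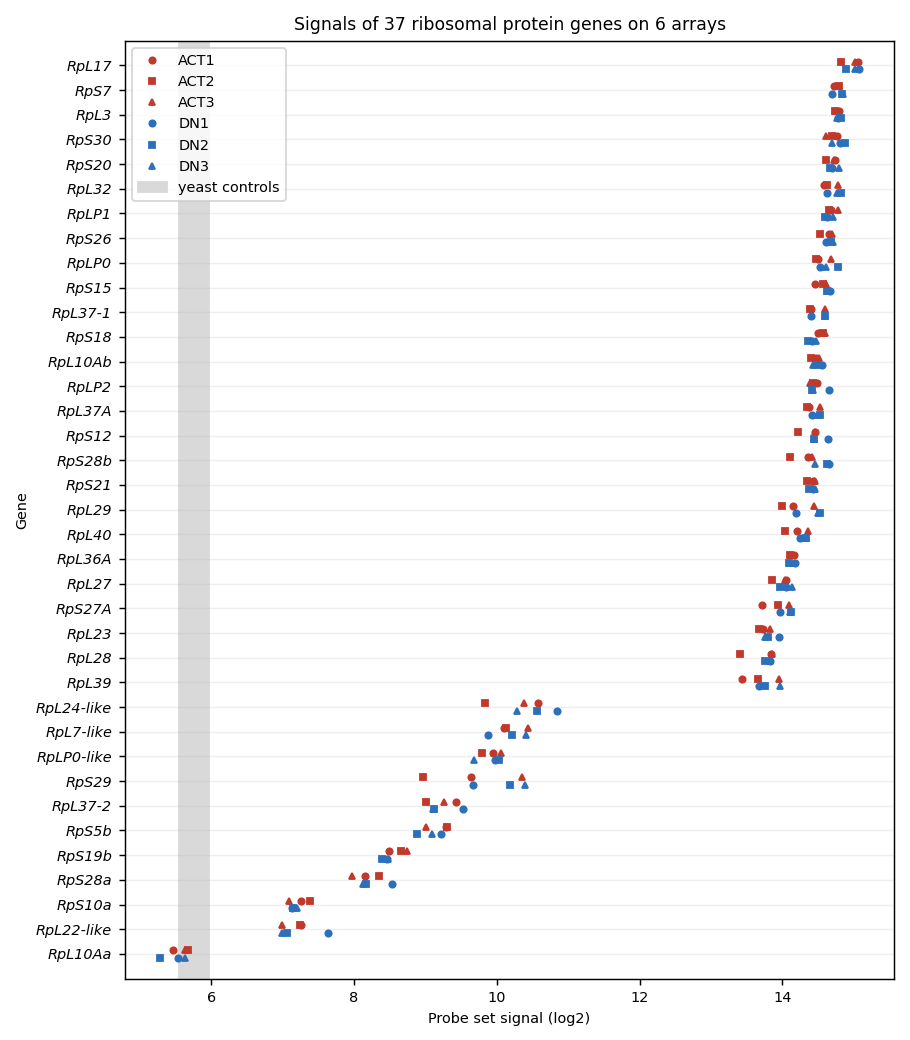
Log2 signal of each of the 37 genes on each array, activated (ACT) in red and dominant negative (DN) in blue, with genes ordered by mean signal. The grey band spans the array means of 4 yeast control probe sets, 5.54 to 5.96. The 26 bright members stand above 13, and RpL10Aa lies in or near the grey band.

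The 2 ranges followed the kind of gene with 1 exception. All 13 large subunit genes, all 3 genes of the P stalk and 10 of 11 small subunit genes were bright. The P stalk is the flexible arm of the large subunit that recruits elongation factors. The 10 genes that are second copies of another ribosomal protein gene or carry the suffix -like all read below 13. Where both copies of a pair were measured, the brighter (RpS28b, RpL10Ab, RpL37-1) was counted as a subunit gene and the other as the second copy. The match of range and kind thus lies partly in how the genes were sorted, and it is no test. RpS29, which encodes a small zinc-binding protein of the small subunit's head, was the exception, at a mean of 9.86.

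RpS29 (149586_at) also varied most among the members. It read 9.63, 8.96 and 10.35 in ACT1, ACT2 and ACT3, against 9.66, 10.18 and 10.39 in DN1, DN2 and DN3. Its low arrays were ACT2, ACT1 and DN1, its high ones ACT3, DN2 and DN3, and the groups overlapped. The SD over the 6 arrays was 0.55, larger than that of 97.9% of all genes. The log2 difference, activated minus dominant negative, was -0.43 (SE 0.32, 95% interval -1.15 to 0.29). It depended on single arrays: it was -0.78 without ACT3 (SE 0.25) and -0.09 without ACT2 (SE 0.28).

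The 2 groups did not differ in any member past the test. Limma's adjusted p, with Benjamini-Hochberg adjustment over all genes, was 0.9998 for each of the 37 members. In the same fit 0 of 10844 genes (0.0%) were called at an adjusted p under 0.05. At an unadjusted p under 0.05 there were 0 members, where the share of all genes was 2.38%. The 95% interval of the log2 difference held 0 in all 37 members. It lay wholly between -0.5 and 0.5 in 33 of the 37, and in 24 of the 26 bright ones.

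Small differences ran mostly one way. Of the 37 members, 9 had a higher and 28 a lower mean in activated discs, with a median log2 difference of -0.07, while over all genes 53.2% were higher and the median was 0.01. Among the bright members 3 of 26 were higher and 23 lower, with a median of -0.07. These counts rested partly on ACT2. Without that array 15 members were higher and 22 lower, with a median of -0.02, and of the bright members 8 were higher and 18 lower, with a median of -0.03. Without DN1 14 of the 37 members were higher and 23 lower. With quantile normalization, which gives every array the same distribution of signals, 13 were higher and 24 lower, also with a median of -0.02, and of the bright members 7 were higher and 19 lower (median -0.03). The 34 other genes with a mean of at least 13 had 14 higher and 20 lower, with a median of -0.02. In the bulk RNA of a disc, fewer cells of a type and less RNA per cell cannot be told apart.

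**Figure D2:**
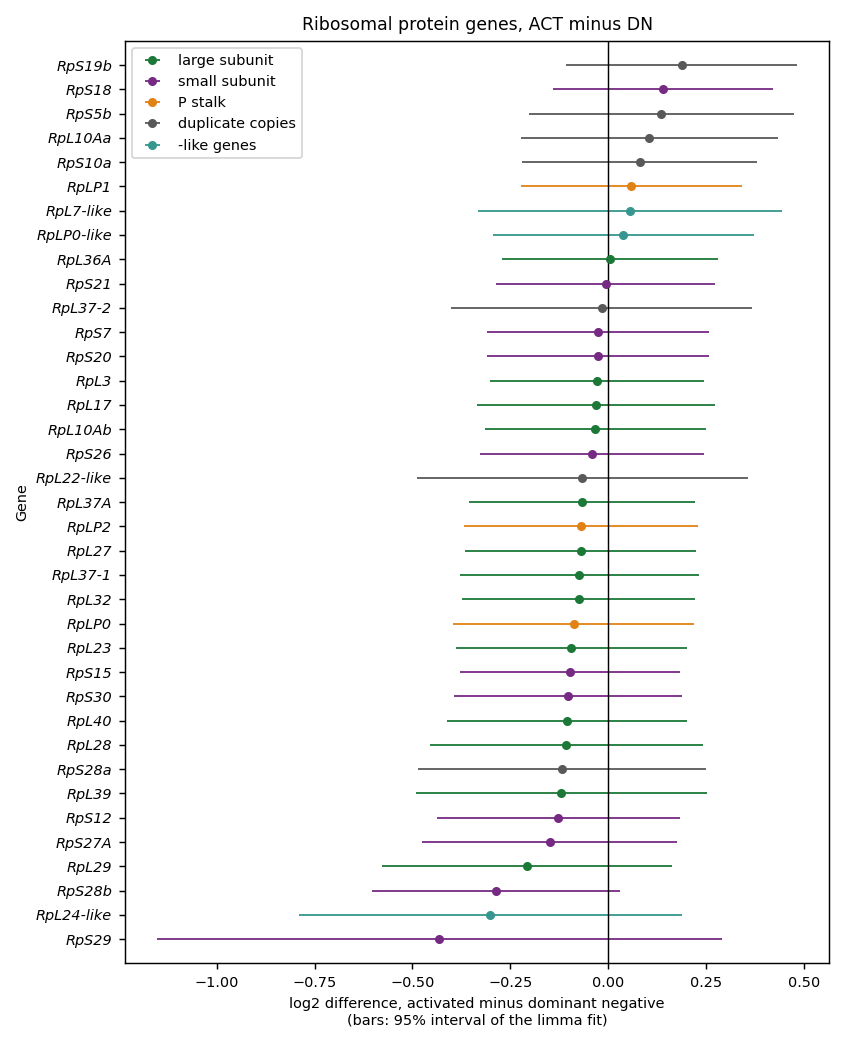
Log2 difference of each gene, activated minus dominant negative discs, with the 95% interval of the limma fit, coloured by kind of gene. All 37 intervals cross 0, with RpS29 at -0.43 and RpS19b at 0.19 as the ends of the range.

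The large subunit genes had a median log2 difference of -0.07, with 1 of 13 higher, against -0.02 and 4 higher with quantile normalization. The median was -0.02 without ACT2, -0.05 without ACT1 and -0.13 without ACT3. RpL36A was the higher one in the main comparison, at 0.01 (SE 0.12), and its signals spanned only 0.085 over all arrays. RpL3 (142472_at), a core protein near the site where peptide bonds form, read 14.79, 14.74 and 14.75 in ACT1 to ACT3 and 14.78, 14.81 and 14.77 in DN1 to DN3. It was the steadiest member, with an SD over the 6 arrays of 0.028 and overlapping groups. RpL29 moved most among the bright large subunit genes. It read 14.15, 14.00 and 14.45 in the activated arrays and 14.19, 14.53 and 14.50 in the dominant negative arrays. As with RpS29, ACT1, ACT2 and DN1 were the 3 low arrays. The log2 difference of RpL29 was -0.21 (SE 0.17).

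RpL39 rose from ACT1 to ACT3 and from DN1 to DN3, while RpL28 was low on 1 array. RpL39, whose protein lines the tunnel through which the new chain leaves, read 13.43, 13.66 and 13.95 in ACT1 to ACT3, against 13.67, 13.75 and 13.97 in DN1 to DN3. RpL28 read 13.84, 13.41 and 13.85 in activated discs, against 13.83, 13.76 and 13.83 in dominant negative discs. Its low value was that of ACT2 alone, and without that array its log2 difference was 0.04 in place of -0.11. RpL32 (143250_at), known as rp49 and often used to normalize PCR assays in the fly, read 14.58, 14.63 and 14.77 in ACT1 to ACT3 and 14.62, 14.82 and 14.77 in DN1 to DN3. Its log2 difference was -0.08 (SE 0.13, 95% interval -0.37 to 0.22), and its signals spanned 0.236. The remaining large subunit genes, RpL10Ab, RpL17, RpL23, RpL27, RpL37-1, RpL37A and RpL40, had log2 differences between -0.10 (RpL40) and -0.03 (RpL17 and RpL10Ab).

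The 3 genes of the P stalk differed little and not in 1 direction. RpLP0, the base of the stalk, had a log2 difference of -0.09 (SE 0.14), and RpLP2, a tip protein, of -0.07 (SE 0.13). RpLP1, its partner at the tip, read 14.68, 14.66 and 14.78 in activated discs and 14.62, 14.60 and 14.71 in dominant negative discs, which overlap. Its log2 difference was 0.06 (SE 0.13). RpLP2 read 14.48, 14.42 and 14.39 in ACT1 to ACT3 and 14.66, 14.42 and 14.42 in DN1 to DN3, and without DN1 its log2 difference was 0.01.

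Small subunit genes had a median log2 difference of -0.10, with 1 of 11 higher, against -0.05 and 2 higher with quantile normalization. With 1 array left out the median lay between -0.11 and -0.05, the nearest to 0 without ACT2. RpS28b (154190_at) had the smallest p of all members in limma. It read 14.36, 14.11 and 14.41 in ACT1 to ACT3, against 14.66, 14.62 and 14.46 in DN1 to DN3. Every activated array lay below every dominant negative array, by 0.05 at the nearest pair. The log2 difference was -0.29 (SE 0.14, 95% interval -0.60 to 0.03), and with 1 array left out it lay between -0.35 and -0.20.

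RpS18 (143618_at) was the 1 small subunit gene with a higher mean in activated discs. It read 14.49, 14.57 and 14.60 in ACT1 to ACT3, against 14.41, 14.36 and 14.47 in DN1 to DN3, with no overlap. The log2 difference was 0.14 (SE 0.12). RpS15 was lower without overlap, at 14.45, 14.56 and 14.61 in activated discs and 14.67, 14.62 and 14.62 in dominant negative discs. Its log2 difference was -0.10 (SE 0.13).

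In all, 4 of the 37 members did not overlap between the groups, where the share of all genes was 6.35%. RpS18 and RpS19b were higher (3.24% of all genes), and RpS28b and RpS15 were lower (3.12% of all genes). The count was 1 after each array was centred on its median (6.78% of all genes) and 2 with quantile normalization (7.17%). Fewer arrays make a gap more likely in every gene. Without ACT3 the count was 15, where 23.5% of all genes did not overlap, and without DN1 it was 7, where 17.8% did not.

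RpS12, whose protein takes part in the recognition of Minute cells by their neighbours in the wing disc, had a log2 difference of -0.13 (SE 0.14). It read 14.45, 14.22 and 14.46 in ACT1 to ACT3 and 14.64, 14.44 and 14.44 in DN1 to DN3, high in DN1 and low in ACT2. RpS27A and RpL40 are made as fusions with ubiquitin, and RpS30 as a fusion with a protein related to ubiquitin. RpS27A read 13.71, 13.93 and 14.10 in activated discs, against 13.97, 14.12 and 14.10 in dominant negative discs, with ACT1 the low array. The log2 difference was -0.15 (SE 0.14) for RpS27A, -0.10 (SE 0.14) for RpL40 and -0.10 (SE 0.13) for RpS30. The other small subunit genes, RpS7, RpS20, RpS21 and RpS26, lay between -0.04 (RpS26) and -0.01 (RpS21).

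The 7 second copies were RpL10Aa, RpL22-like, RpL37-2, RpS5b, RpS10a, RpS19b and RpS28a. Several such copies are known in the fly from the germ line, RpL22-like from the testis and RpS5b from the ovary. Of the 7, 4 had a higher and 3 a lower mean in activated discs, with a median log2 difference of 0.08 (0.04 with quantile normalization). RpS19b (150473_at) read 8.49, 8.66 and 8.74 in ACT1 to ACT3, against 8.47, 8.39 and 8.47 in DN1 to DN3. The groups did not overlap, with a gap of 0.02 between ACT1 and DN3, and the log2 difference was 0.19 (SE 0.13). RpS5b had a log2 difference of 0.14 (SE 0.15). It read 9.29, 9.30 and 9.002 in activated discs and 9.21, 8.88 and 9.09 in dominant negative discs, which overlap.

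RpL22-like read 7.26, 7.24 and 6.99 in ACT1 to ACT3, against 7.63, 7.06 and 6.99 in DN1 to DN3, with DN1 the high array. RpS28a was also highest in DN1, at 8.53. Both copies were measured in 3 pairs. RpS28b, given before, had a log2 difference of -0.29 and its copy RpS28a of -0.12 (SE 0.16). RpL10Ab had a log2 difference of -0.03 (SE 0.13) and RpL10Aa of 0.11 (SE 0.15), and RpL37-1 had -0.07 (SE 0.14) and RpL37-2 -0.02 (SE 0.17). Copies with similar sequences can share probes' signal, and the probe sequences were not used here. RpL10Aa read 5.28 to 5.67 and was the 1 member whose mean did not exceed the highest array mean of the yeast control probe sets, 5.96. Its values give no level above background.

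Markers of the germ line were mostly low but not all at background. Of 12 listed, 11 were measured, and their mean signal per array lay between 6.76 and 6.98 in activated discs and between 6.74 and 6.93 in dominant negative discs. The mean of vas, can and dj did not exceed 5.96, while Mst98Ca averaged above 9. The marker aly averaged 8.24 in activated and 8.20 in dominant negative discs, and Mst87F 7.99 in both. The part of germ line cells in the signals of the second copies was not tested.

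The other 3 genes with the suffix -like encode relatives of ribosomal proteins. Yeast counterparts of RpL24-like and RpLP0-like bind the forming large subunit and are exchanged for the ribosomal protein itself. RpL24-like (149687_at) had the widest spread after RpS29, with an SD of 0.34. It read 10.58, 9.83 and 10.38 in ACT1 to ACT3, against 10.84, 10.56 and 10.28 in DN1 to DN3, lowest in ACT2 and highest in DN1. The log2 difference was -0.30 (SE 0.22), and without ACT2 it was -0.08. It was 0.04 (SE 0.15) for RpLP0-like and 0.06 (SE 0.17) for RpL7-like.

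The bright members were steadier across the arrays than most genes. Their median SD over the 6 arrays was 0.097, against 0.190 over all genes, and 23 of 26 lay below that value. The 34 other genes with a mean of at least 13 had a median SD of 0.217, but they lay lower, with array means of 13.41 to 13.66 where the bright members had 14.31 to 14.46. The low spread of the bright members and their nearness to the upper end of the scale cannot be told apart here. For the 11 members below 13 the median SD was 0.195. Limma's SE of the bright members, with a median of 0.132, is drawn towards that of all genes, whose median was 0.159.

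Part of the spread of the bright members was shared by array, as it was over all genes. The first component of what remained after the group means held 51.6% of that variance in the bright members and 57.3% over all genes. In ACT2, 2 of 26 bright members lay above their own mean over the 6 arrays, and it was the lowest array for 16 of them. In ACT1 and ACT3 the numbers above were 13 and 21, and in DN1, DN2 and DN3 they were 13, 18 and 18. Over all genes 51.7% lay above their own mean in ACT2. ACT2 was also the lowest array for the 34 other genes with a mean of at least 13, whose mean was 13.41 there and 13.45 to 13.66 elsewhere. The same held for the translation factors (11.25 there, 11.48 to 11.74 elsewhere) and the ribosome biogenesis genes (9.21 there, 9.33 to 9.59 elsewhere), so the dip was not particular to the ribosomal protein genes. ACT2 also had the narrowest distribution, with an SD over probe sets of 1.53 where the other arrays had 1.58 to 1.66. With quantile normalization, 13 of 26 bright members lay above their own mean in ACT2, and 13 or 14 in every other array. That method gives all arrays the same top values, and the bright members are 26 of the 60 genes with a mean of at least 13. Such even counts are thus largely given in advance and are no test. With each array centred on its median, 1 bright member lay above its own mean in ACT2 and 6 to 24 elsewhere.

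**Figure D3:**
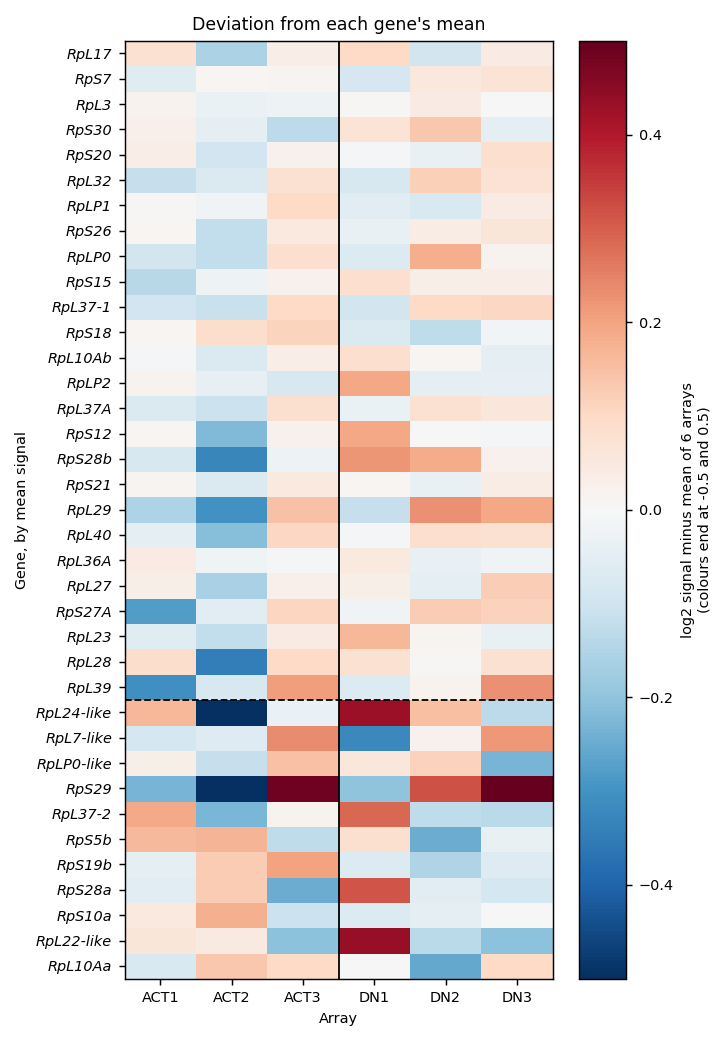
Deviation of each gene's log2 signal from its own mean over the 6 arrays, with activated arrays left of the vertical line and genes ordered by mean signal from bottom to top. The dashed line separates the 11 genes below 13 from the 26 bright members, whose column for ACT2 is mostly blue (2 of 26 above their mean).

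Signs of RNA composition and quality differed between the arrays in both groups. Of the control probe sets for 18S ribosomal RNA, the RNA of the small subunit, the one at the 3′ end read 11.97, 6.93 and 6.85 in ACT1 to ACT3, against 12.80, 10.13 and 6.81 in DN1 to DN3. It was thus high in ACT1, DN1 and DN2, and low in the other arrays of both groups. The mean 3′ minus 5′ difference of the actin, GAPDH and eIF-4a control probe sets, which grows when RNA is broken or copied short, was 0.97, 1.19 and 1.19 in ACT1 to ACT3. In DN1 to DN3 it was 0.83, 0.76 and 1.69, highest in DN3. With the mean signal of all 3 control probe sets for 18S ribosomal RNA as a covariate, the median log2 difference of the members was -0.06 and 10 were higher. With the 3′ minus 5′ difference it was -0.07 and 9 were higher. No member was called in either fit.

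**Figure D4:**
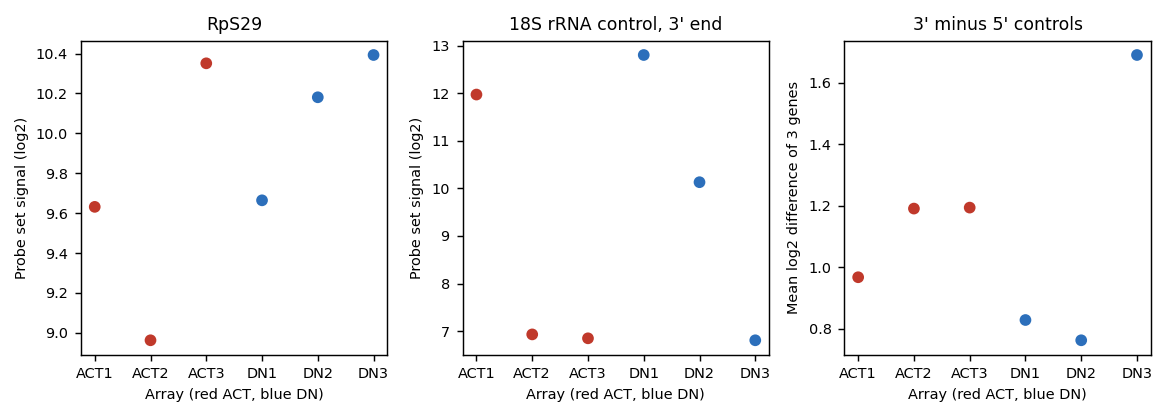
Log2 signal of RpS29, log2 signal of the 18S ribosomal RNA control probe set at the 3′ end, and mean 3′ minus 5′ log2 difference of 3 control genes, by array, activated in red and dominant negative in blue. RpS29 is low in ACT2 (8.96), where the 18S control is low too (6.93), and it is also below 10 in ACT1 and DN1, where that control is highest.

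Other parts of the translation machinery were read beside the members. Of 28 translation factors measured, 13 were higher and 15 lower, with a median log2 difference of -0.01, which became 0.03 with quantile normalization, and 0 were called. The median had no settled sign: it was 0.07 without ACT2 and 0.03 without DN2, but -0.18 without ACT3, -0.15 without DN1, and -0.05 without ACT1 and without DN3. The smallest p among them was that of eEF1alpha2, an elongation factor that delivers aminoacyl-tRNA, with a mean of 8.94 ± 0.22 in the activated group and 9.68 ± 0.48 in the dominant negative group (SD, n = 3 each). The log2 difference of eEF1alpha2 was -0.74 (SE 0.23). The initiation factor eIF1 followed at -0.54 (SE 0.27), then eIF3a at 0.26 (SE 0.15).

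The list for ribosome biogenesis, the making and assembly of ribosomal RNA, had 14 of 38 higher and 24 lower, with 0 called. Not every gene in it has that role. Its median was -0.04 (-0.03 with quantile normalization). The median was 0.02 without ACT2, -0.01 without DN3, -0.08 without DN1 and -0.14 without ACT3. Ski6, a subunit of the exosome that trims ribosomal RNA, had a log2 difference of -0.26 (SE 0.14), NHP2 of -0.30 (SE 0.18) and Non1 of -0.26 (SE 0.17). The list of ribosome partners, which also held ubiquitin genes, had 1 of 5 measured higher and 4 lower, with a median of -0.11 (-0.03 with quantile normalization). Among them, bic had a log2 difference of -0.11 (SE 0.12), and the ubiquitin genes Ubi-p63E and Ubi-p5E of -0.17 (SE 0.19) and -0.14 (SE 0.16).

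A list drawn up for regulators of growth and of ribosomal protein promoters had 10 of 14 higher and 4 lower, with a median of 0.06 and 0 called. It held genes that promote growth and genes that restrain it, so these counts are not a reading of growth. Trf4-1, a poly(A) polymerase that was in the list though it is not such a regulator, had a log2 difference of 0.37 (SE 0.20). The promoter-binding factor Dref had -0.38 (SE 0.30). The kinase S6k, which phosphorylates RpS6, had 0.28 (SE 0.22).

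Genes of the wing pouch and hinge were read for the labelled tissue, of which 10 were measured, all above the yeast control level. Over all genes only 772 of 10844 did not exceed that level, so this count is no check of the tissue. The mean signal of the 10 genes per array was 9.70 to 9.86 in activated and 9.49 to 9.77 in dominant negative discs. Markers of other organs and cell types were present too. All 8 salivary gland markers had a lower mean in activated discs (median log2 difference -0.67), with array means of 8.35 to 9.20 in activated and 8.60 to 9.65 in dominant negative discs. The groups overlapped in all 8, and fkh and Sgs1 had log2 differences of only -0.02 (SE 0.19) and -0.03 (SE 0.18). Sgs7 rose along both groups, from 10.30 over 10.87 to 12.79 in ACT1 to ACT3 and from 10.79 over 12.93 to 13.18 in DN1 to DN3. All 3 measured fat body markers had a lower mean in activated discs too (median -0.71), at 9.10 to 10.39 in activated and 10.25 to 11.04 in dominant negative discs, with 1 of them without overlap. None of either list was near background. Markers of adepithelial myoblasts were lower in 5 of 5, of trachea in 4 of 5 and of hemocytes in 6 of 8. Over all genes 5075 of 10844 were lower. The medians were -0.25 for myoblasts, -0.41 for trachea and -0.05 for hemocytes. Among the hemocyte markers SPARC had -0.87 (SE 0.18), while Hml and srp had -0.02 each (SE 0.14). The 2 higher ones were PPO2 at 0.39 (SE 0.16) and PPO1 at 0.24 (SE 0.19). Of the hemocyte markers 2 were near background. Markers of the notum, which the disc itself forms, were lower in 3 of 5. Their part in the differences of the ribosomal protein genes was not tested.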

How the data were processed

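The deposited table gives log2 signals of 14010 probe sets on each array. GCRMA, a method that corrects background by probe sequence and summarises each probe set, made them, per the submitters' processing notes. Version and settings are not stated in the sources used here. That the scale is log2 follows from the deposited values (4.72 to 15.08, array medians 8.01 to 8.06). Leaving out 44 control probe sets, 13966 remained, of which 12443 had 1 gene symbol, 327 several and 1196 none. The probe set of highest mean stood for each of 10844 genes. Activated and dominant negative discs (3 arrays each) were set against each other in limma 3.58.1 under R 4.3.3 (lmFit, eBayes, two-sided, no covariate), with Benjamini-Hochberg adjustment over all genes; an exact permutation test of 3 against 3 cannot go below 0.1. The p-values rest on the spread between these arrays alone, which may be technical. The limma fit was checked on simulated data, with noise drawn separately for each gene and array. That noise lacked the spread shared by array, so the check does not cover it. Members and lists were chosen with earlier results of these data known. The members named in full were those of smallest p, largest spread and lowest mean, the stalk, -like and duplicated genes, and a fixed set of well-known genes; of other lists, the 3 genes of smallest p. The number of arrays limits the precision. Plots were made in matplotlib 3.10.9 (Python 3.11.15).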

Additional observations from a re-analysis of the deposited data

How the results depend on the processing

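No member was called under any of the alternatives run, and the smallest adjusted p of a member was 0.576 (limma, array weights). Of the 37 members, 21 kept the sign of their log2 difference throughout, 15 lower and 6 higher, though for many of these the difference was smaller than its SE. Several alternatives leave a member's difference as it was and could not change its sign. These were the filter on the mean, the intensity trend, the replicate block, averaged probe sets and a fit over all probe sets. The count of members higher, 9, lay between 8 (without DN2 or ACT3) and 15 (without ACT2) with 1 array left out, and that of members without overlap, 4, between 4 and 15. It was 1 with median centring and 2 with quantile normalization. At an unadjusted p under 0.05 there were 0 members with all arrays and 0 to 1 with 1 left out. Over all genes 0 were called, and 1 each with array weights, with averaged probe sets, with an intensity trend and robust prior, and with quantile normalization. With 1 array left out 0 to 3 were called. The genes at an unadjusted p under 0.05 numbered 258 in the main comparison, 946 with array weights, 615 with the replicate block, 540 with the 18S covariate, and 160 to 857 with 1 array left out. Same-numbered arrays did not all deviate together (r over all genes 0.606 for ACT1 with DN1, -0.121 for ACT2 with DN2, 0.59 for ACT3 with DN3), so the numbers were not taken as pairs. The replicate block called 0 members. A filter at a mean of 6 left out RpL10Aa. The covariates and the restriction to bright members (median log2 difference -0.07) were chosen after seeing the data. The causes of these changes were not tested.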
